A study of Homo sapiens with 16 samples.

Results

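The genes followed here, 6 in all, move acid out of the cytosol of tumor cells and were read across every condition of the series: CA9 and CA12 (carbonic anhydrases at the cell surface), SLC16A1 and SLC16A3 (the monocarboxylate transporters MCT1 and MCT4), BSG (basigin, the chaperone of both transporters) and SLC4A7 (the sodium bicarbonate cotransporter NBCn1). They were chosen by name as genes of pH regulation, and all 6 had a row in each experiment's table (13559 and 14024 genes). RNA came from LN229, an established line of human glioblastoma (GBM) cells, in 16 libraries that make 8 groups of 2. The first experiment (4 libraries) compared untreated cells in regular culture, which is complete medium with 10% fetal bovine serum under normal oxygen, with untreated cells in ischemic culture, which combined 2 mM glucose, 0.1 mM glutamine, 1% serum and about 1% oxygen. The second experiment (12 libraries) treated cells in each culture with DMSO (the vehicle), with VX745, an inhibitor of the stress kinase p38α, or with MK25, an inhibitor of MK2, a kinase that p38 activates. All groups are the same cell line, so they model cultured GBM cells without stroma or vessels. The base of the ischemic medium also lacked sodium pyruvate. Oxygen, nutrients and serum were changed together and cannot be told apart. The methods give 2 µM for VX745 and 10 µM for MK25, as concentrations for the study in general, and the duration of the sequenced cultures is not given in the sources used here.

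Cells that ferment glucose make lactate and protons, which the monocarboxylate transporters carry out together. MCT4 is the transporter usually linked to export from glycolytic cells, whereas MCT1 carries lactate in either direction and has a higher affinity for it. Outside the cell, CA9 and CA12 convert carbon dioxide and water to bicarbonate and protons, and bicarbonate can return through cotransporters such as NBCn1. CA9 is one of the best known targets of the hypoxia-inducible factors (HIF) and is used in pathology to mark hypoxic tumor areas. HIF binds a short DNA element whose core letters are ACGTG or GCGTG.

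Values are normalized CPM (reads scaled for library depth) on the log2 scale, as the authors deposited them, so a difference of 1 is a doubling. Reads on listed genes came to 22346073 to 28373993 per library in the first experiment. In the second, ischemic libraries held 27239609 to 37562668 reads and regular ones 20122017 to 30228774. A constant offset of about 2 reads in each value shrinks the changes of weakly expressed genes, and for CA9 the ratio of CPM without that offset is also given. Of the glioblastoma markers, VIM stood at 11.08 to 12.77 on the log2 scale. GFAP, the astrocyte filament gene, was low at 21 to 55 reads, and OLIG2 held 39 to 266 reads. All 8 of these markers had a row, which alone does not identify the line. They moved with culture as well: 2 were higher and 5 lower in untreated ischemic cells, and 3 higher and 4 lower with DMSO. Their summed level ran from 4027 to 4582 CPM in regular and from 5818 to 8317 CPM in ischemic libraries. VIM weighs most in that sum, with 53351 to 193045 reads per library, while no other of the 8 held more than 33240. Of 9 markers of other cells 7 had no row, PTPRC, AIF1, PECAM1, CDH5, RBFOX3, MBP and MOG. CD68 and SYT1 did, with 546 to 2093 and 311 to 2152 reads per library, and both were higher in ischemic culture in all 4 comparisons. The summed level of these 2 was 34.97 to 54.41 CPM in regular and 95.29 to 124.35 CPM in ischemic libraries, and the part of either marker list in the results below was not tested. The 10 most abundant genes also took more of the reads in ischemic (5.66% to 6.45%) than in regular libraries (4.23% to 4.65%).

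Upstream sequences are shown as examples for 3 of the genes, CA9, SLC16A3 and CA12, picked with their changes already known. They come from RefSeq (GRCh38.p14), run 5′ to 3′ on the gene's own strand and end at the base before a start site. Capitals mark ACGTG or, where the element lies on the opposite strand, CACGT.
CA9: tcgtttccaatgCACGTacagcccgtacac
SLC16A3: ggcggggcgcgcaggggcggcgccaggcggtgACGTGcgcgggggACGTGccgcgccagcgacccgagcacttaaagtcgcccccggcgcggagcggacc
CA12: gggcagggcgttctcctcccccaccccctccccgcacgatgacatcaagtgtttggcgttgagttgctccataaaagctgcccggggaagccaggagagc
The CA9 stretch covers 30 bases on the plus strand (chr9:35673898-35673927), the SLC16A3 stretch 100 bases on the plus strand (chr17:82228942-82229041) and the CA12 stretch 100 bases on the minus strand (chr15:63381847-63381946). In the 250 bases before a start, 18.5% of 35116 RefSeq promoters hold ACGTG and 32.2% hold GCGTG on either strand. CA9 holds 1 ACGTG, whose first base lies 18 bases before the start. SLC16A3 has 5 listed starts, and ACGTG stands before only 1 of them, the one shown, at 68 and 55 bases. CA12 holds no ACGTG and 1 GCGTG, at 234 bases, which lies outside the stretch shown. SLC4A7 holds no ACGTG at either of its 2 starts and 2 GCGTG at 1 of them. BSG has 1 of 2 starts with CACGTG, which is read as ACGTG on both strands, and with 4 GCGTG. SLC16A1 had no entry. These letters are a description of the sequence and do not show that a factor bound there. Whether they go with the size of a gene's change was not tested.

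The first question was what ischemic culture did to these genes without an inhibitor. Without vehicle, CA9 rose from near the limit of detection to a strongly expressed gene. SLC16A3 rose there more than 12-fold and SLC16A1 about 4-fold, whereas SLC4A7 fell and BSG rose slightly. With DMSO the rises were smaller for SLC16A3 (7.1-fold) and SLC16A1 (2.45-fold). In untreated cells 4 of the 6 genes rose and 1 fell, words used throughout for an adjusted p below 0.05 (limma, Benjamini-Hochberg over all genes). Ischemia moved much of the transcriptome: 35.2% of all genes were higher and 35.2% lower. At 2-fold or more, 3 of the 6 were higher, against 11.3% of all genes. With DMSO 5 rose and 1 fell, with 34.4% of all genes higher and 35.2% lower, and 4 of the 6 rose at least 2-fold, against 9.03%. In bulk RNA a change within every cell and a change in the share of cells that express a gene cannot be told apart. The median log2 fold change of the 6 genes was 1.33 without vehicle and 1.24 with DMSO, beside -0.0090 and -0.0068 over all genes.

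**Figure D1:**
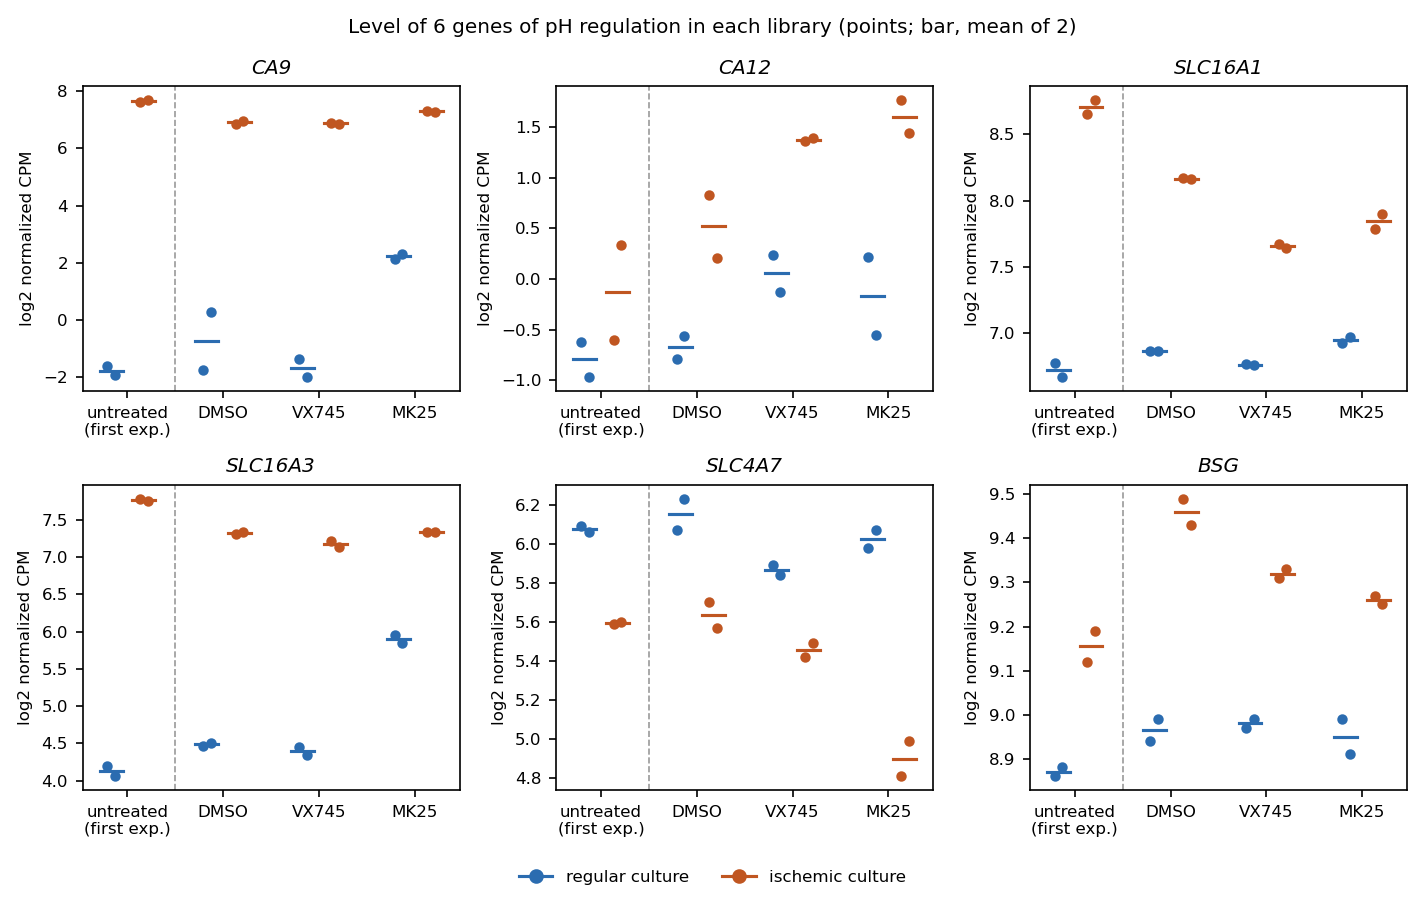
Level of each gene in all 16 libraries on the y axis (log2 normalized CPM, a separate scale per panel), by treatment on the x axis. Points are libraries, bars the mean of 2, blue is regular and orange ischemic culture, and the dashed line separates the experiments. CA9 and SLC16A3 stand above their controls in regular culture with MK25 (CA9 at 2.14 and 2.30), and SLC4A7 is lowest in ischemic culture with MK25 (4.81 and 4.99).

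CA9 (Entrez 768) lies on chromosome 9 at 35673928 to 35681159 (GRCh38, plus strand), and its MANE Select transcript, the reference transcript shared by RefSeq and GENCODE, has 11 exons. In untreated cells it stood at 7.64 and 7.70 in ischemic and at -1.62 and -1.94 in regular culture. The regular libraries held 6 and 5 CA9 reads, beside an offset of 2.02 and 2.30 reads. CA9 rose by 9.45 ± 0.15 (SE, adjusted p = 1.86e-13, limma), and without the offset the mean was 203 CPM against 0.211 CPM, a ratio of 963. With DMSO the ischemic libraries stood at 6.87 and 6.97 and the regular ones at -1.77 and 0.27. These regular libraries were far apart, with 7 reads in replicate 1 and 28 in replicate 2. CA9 rose there by 7.67 ± 0.38 (adjusted p = 8.40e-12), by 8.69 without regular DMSO replicate 2 and by 6.65 without regular DMSO replicate 1.

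CA9 shares 571 bases, 35.7% of its exon bases, with exons of ARHGEF39 on the opposite strand, and the library kit does not mark strand, so reads from the shared bases cannot be told apart. ARHGEF39 itself stood between 5.12 and 5.67 in all 16 libraries. It was lower in untreated ischemic cells by 0.34 (limma, adjusted p = 0.00319), where CA9 rose. In ischemic culture it was higher with MK25 than with DMSO by 0.31 (adjusted p = 0.00137), where CA9 differed by 0.37. With VX745 it was higher there by 0.21 (adjusted p = 0.0275), where CA9 differed by -0.04. What the shared bases add to the CA9 values was not tested. In the library with the fewest CA9 reads, 4, ARHGEF39 had 1145.

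SLC16A3 (Entrez 9123; chromosome 17, 82217934 to 82240086, plus strand) encodes MCT4. It stood at 7.78 and 7.75 in untreated ischemic and at 4.20 and 4.06 in regular libraries, which do not overlap. It rose by 3.64 ± 0.08 (adjusted p = 1.99e-12), a ratio of 12.5 in CPM. With DMSO the values were 7.31 and 7.33 against 4.47 and 4.51, and the rise was 2.83 ± 0.06 (adjusted p = 8.41e-17), a ratio of 7.14. SLC16A3 shares 5.22% of its exon bases with CSNK1D on the opposite strand.

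SLC16A1 (Entrez 6566; chromosome 1, 112911847 to 112956196, minus strand) encodes MCT1. In untreated cells SLC16A1 stood at 8.65 and 8.76 in ischemic and at 6.78 and 6.67 in regular culture, a rise of 1.98 ± 0.07 (adjusted p = 2.28e-10). With DMSO it stood at 8.17 and 8.16 against 6.87 and 6.87, a rise of 1.29 ± 0.05 (adjusted p = 5.88e-13). The gene was thus well expressed in regular culture already, unlike CA9.

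BSG (Entrez 682; chromosome 19, 571283 to 583493, plus strand), whose protein brings MCT1 and MCT4 to the cell membrane, was the most abundant of the 6 and moved least. It stood at 9.12 and 9.19 in untreated ischemic and at 8.86 and 8.88 in regular libraries, and rose by 0.28 ± 0.07 (adjusted p = 0.00211). Under quantile normalization that rise was 0.07 and no longer passed (adjusted p = 0.308). With DMSO it stood at 9.49 and 9.43 against 8.94 and 8.99, a rise of 0.50 ± 0.05 (adjusted p = 1.84e-07), which was 0.14 under quantile normalization (adjusted p = 0.0251).

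SLC4A7 (Entrez 9497; chromosome 3, 27372723 to 27484384, minus strand) went the other way. It stood at 5.59 and 5.60 in untreated ischemic and at 6.09 and 6.06 in regular libraries, and fell by 0.48 (SE 0.07, adjusted p = 7.90e-05). With DMSO it stood at 5.70 and 5.57 against 6.07 and 6.23, and fell by 0.51 (SE 0.08, adjusted p = 1.29e-05). In both experiments every ischemic library lay below every regular one.

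CA12 (Entrez 771; chromosome 15, 63321378 to 63381846, minus strand) was barely expressed, with 12 to 123 reads per library. In untreated cells it stood at -0.60 and 0.34 in ischemic and -0.62 and -0.97 in regular libraries, a difference of 0.67 (95% confidence interval -0.20 to 1.54, adjusted p = 0.153). The difference was 1.13 without ischemic untreated replicate 1 (adjusted p = 0.0171) and 0.20 without replicate 2 (adjusted p = 0.733). With DMSO it stood at 0.83 and 0.21 against -0.79 and -0.56 and rose by 1.20 ± 0.31 (adjusted p = 0.00214). CA9 and CA12 thus differed by far in level under ischemia: per kilobase of transcript, CA9 was 312 to 609 times CA12 in untreated ischemic libraries and 0.740 to 0.761 times CA12 in regular ones. With the longest or the MANE Select transcript of each gene these ratios were 692 to 1352 and 1.64 to 1.69, so which of the pair was higher in regular culture depends on the CA12 transcript taken.

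**Figure D2:**
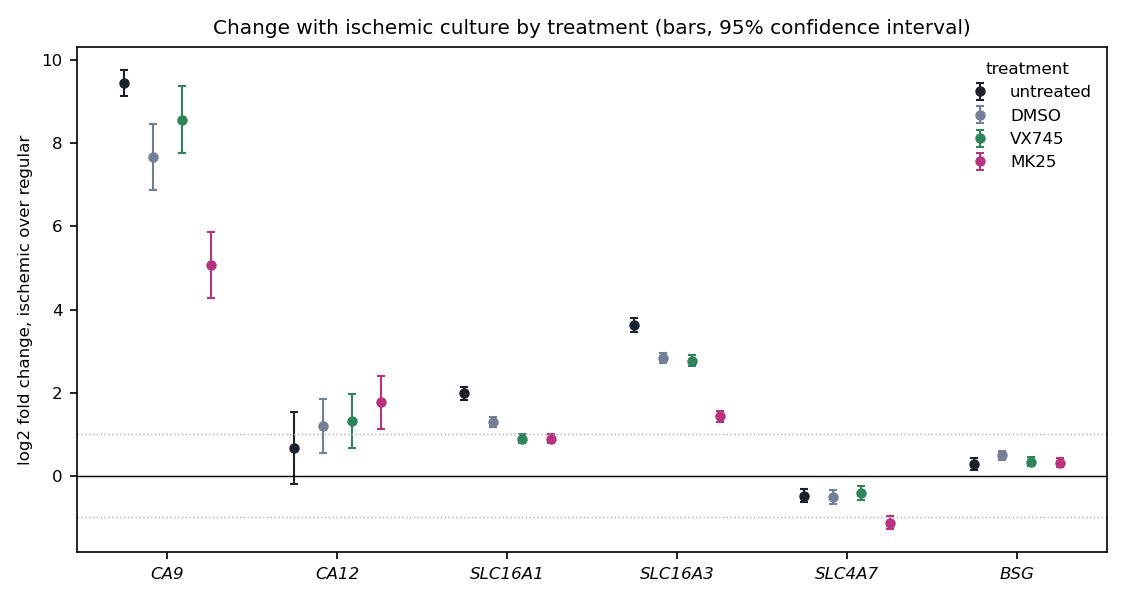
Log2 fold change of ischemic over regular culture (y axis) for each gene (x axis) in untreated cells and with DMSO, VX745 or MK25. Points are limma estimates, bars 95% confidence intervals, and dotted lines mark 2-fold. The rises of CA9 and SLC16A3 with MK25 (5.08 and 1.43) lie below those in the other 3 conditions, and the fall of SLC4A7 with MK25 (-1.13) is the deepest.

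Levels of different genes can be compared only per length. Reads per kilobase of transcript, scaled like CPM, were computed with the median length of each gene's coding transcripts in GENCODE 44. In untreated regular cells BSG came first at 291 ± 2.82 (SD, n = 2), followed by SLC16A1 at 28.2 ± 1.47, SLC4A7 at 16.3 ± 0.270, SLC16A3 at 6.61 ± 0.452, CA12 at 0.181 ± 0.0359 and CA9 at 0.136 ± 0.0296. In ischemic cells the order was BSG (354 ± 12.1), CA9 (131 ± 3.91), SLC16A1 (111 ± 6.25), SLC16A3 (82.7 ± 1.33), SLC4A7 (11.7 ± 0.101) and CA12 (0.321 ± 0.155). CA9 thus went from last to second place. With the longest or the MANE Select transcript CA12 was at 0.0816 in regular cells, below CA9, so CA9 was then the last but one. The value for BSG was 292 with its MANE Select transcript and that for SLC16A3 45.1 with its longest, which leaves this ischemic order as it is.

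The balance between the transporters also moved. Per kilobase, SLC16A1 stood at 4.21 and 4.31 times SLC16A3 in untreated regular libraries and at 1.28 and 1.42 times in ischemic ones. With DMSO the ratio was 3.72 and 3.62 in regular and 1.27 and 1.25 in ischemic culture. In regular culture with MK25 it was 1.38 and 1.54, close to the ischemic DMSO libraries, whereas with VX745 it was 3.51 and 3.75. With the longest transcripts all these ratios are larger by the same factor (2.34 and 2.60 in untreated ischemic libraries), so their order cannot change. BSG stood at 7.73 and 7.93 times the sum of both transporters in regular DMSO libraries and at 3.27 and 3.13 times in ischemic ones.

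**Figure D3:**
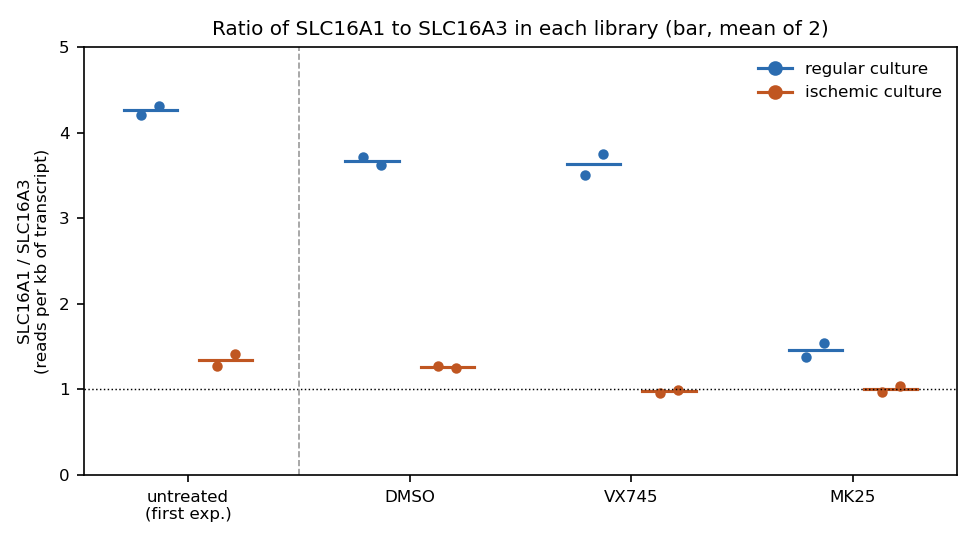
Ratio of SLC16A1 to SLC16A3 in each library (y axis, from reads per kilobase of transcript) by treatment (x axis). Points are libraries, bars the mean of 2, blue is regular and orange ischemic culture, the dotted line marks a ratio of 1 and the dashed line separates the experiments. The regular MK25 libraries (1.38 and 1.54) lie apart from the other regular libraries, which run from 3.51 to 4.31.

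The second question was how the p38 inhibitor acted on these genes. In ischemic culture SLC16A1 fell with VX745, while CA9 and SLC16A3 stayed far above their regular levels. Of the 6 genes 1 rose (CA12) and 2 fell (SLC16A1 and BSG), against 14% of all genes higher and 14.9% lower. SLC16A1 stood at 7.67 and 7.64 with VX745 and at 8.17 and 8.16 with DMSO, and fell by 0.51 (SE 0.05, adjusted p = 3.47e-06). Its level with VX745 was 70.1% of that with DMSO in CPM, and still 1.85 times the regular VX745 level. CA12 stood at 1.36 and 1.39 against 0.83 and 0.21 and rose by 0.85 ± 0.31 (adjusted p = 0.0454), and this call was lost without ischemic DMSO replicate 2 (0.54, adjusted p = 0.308), without ischemic VX745 replicate 1 (0.87, adjusted p = 0.152) and without ischemic VX745 replicate 2 (0.84, adjusted p = 0.164).

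CA9 stood at 6.90 and 6.86 with VX745 and at 6.87 and 6.97 with DMSO, a difference of -0.04 (95% confidence interval -0.83 to 0.76, adjusted p = 0.957). The groups overlap, and the interval is wide because it includes the spread of the regular DMSO libraries. SLC16A3 stood at 7.22 and 7.14 against 7.31 and 7.33, a difference of -0.15 (interval -0.28 to -0.02) that missed the threshold at an adjusted p of 0.0795. SLC4A7 differed by -0.18 (interval -0.35 to -0.02, adjusted p = 0.0801). BSG, at 9.31 and 9.33 against 9.49 and 9.43, fell by 0.14 (SE 0.05, adjusted p = 0.0475), but the difference was 0.08 in the opposite direction under quantile normalization, and leaving out any of the 4 libraries raised the adjusted p to 0.0853 or more.

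In regular culture none of the 6 genes passed with VX745, where 0.178% of all genes were higher and 0.157% lower (limma). At an unadjusted p under 0.05 there were 3 of the 6, CA9, CA12 and SLC4A7, against 14.8% of all genes, and none passed the adjusted threshold with voom on the recovered reads. CA9 stood at -1.37 and -2.01 with VX745, at 8 and 4 reads, a difference from DMSO of -0.94 (interval -1.74 to -0.14, adjusted p = 0.259). That difference was -1.96 (adjusted p = 5.67e-05) without regular DMSO replicate 1 and 0.08 (adjusted p = 0.926) without replicate 2, so it rests on which DMSO library is kept. SLC4A7 differed by -0.28 (interval -0.44 to -0.12, adjusted p = 0.122). It passed only without regular DMSO replicate 1 (-0.36, adjusted p = 0.0466).

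The effect of VX745 differed between the cultures for 1 of the 6 genes, against 1653 of all 14024 genes in either direction. A lower change in ischemic culture, the direction of that 1 gene, was found for 6% of all genes. For SLC16A1 the change with VX745 was lower in ischemic than in regular culture by 0.40 (SE 0.07, adjusted p = 0.00294), from -0.51 in ischemic and -0.11 in regular culture.

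The third question was the effect of the MK2 inhibitor. In regular culture CA9 and SLC16A3 rose with MK25, with oxygen and nutrients at their regular levels. In the untreated cells of the other experiment these 2 had the largest rises with ischemia. The other 4 did not pass, and among all genes 7% were higher and 5.21% lower. CA9 stood at 2.14 and 2.30 with MK25 (91 and 111 reads) and at -1.77 and 0.27 with DMSO (7 and 28 reads). CA9 rose by 2.97 ± 0.38 (adjusted p = 4.90e-05), a ratio of 6.77 in CPM without the offset, and both MK25 libraries exceeded all 4 regular libraries with DMSO or VX745. The rise was 1.95 without regular DMSO replicate 1 (adjusted p = 3.84e-06) and 3.99 without replicate 2 (adjusted p = 1.24e-09). The level reached remained small beside that of ischemia: regular MK25 cells had 3.79% of the CA9 CPM of ischemic DMSO cells, and regular DMSO cells 0.560%.

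SLC16A3 stood at 5.95 and 5.84 in regular culture with MK25 and at 4.47 and 4.51 with DMSO, and rose by 1.41 ± 0.06 (adjusted p = 2.50e-11). Its regular MK25 level was 37.2% of the ischemic DMSO level, against 14.0% for regular DMSO cells. SLC16A1, the other transporter, stood at 6.93 and 6.97 against 6.87 and 6.87, a difference of 0.08 (interval -0.03 to 0.19, adjusted p = 0.365). The remaining differences were 0.51 for CA12 (interval -0.14 to 1.15), -0.12 for SLC4A7 (-0.28 to 0.04) and -0.01 for BSG (-0.12 to 0.10).

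In ischemic culture the genes that moved with MK25 were others. Of the 6 genes 1 rose (CA12) and 3 fell (SLC4A7, SLC16A1 and BSG), against 19.8% of all genes higher and 22% lower. SLC4A7 fell most, to 4.81 and 4.99 from 5.70 and 5.57 with DMSO, by 0.74 on the log2 scale (SE 0.08, adjusted p = 1.21e-06), which is 59.9% of the DMSO level in CPM. SLC16A1 stood at 7.79 and 7.90 and fell by 0.32 (SE 0.05, adjusted p = 0.000124), and by 0.19 under quantile normalization (adjusted p = 0.00742). BSG stood at 9.27 and 9.25 and fell by 0.20 (SE 0.05, adjusted p = 0.00570), a direction that turned to 0.05 higher under quantile normalization, and it did not pass without ischemic DMSO replicate 1 (-0.17, adjusted p = 0.0738).

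CA12 stood at 1.77 and 1.44 with MK25 in ischemic culture and rose by 1.08 ± 0.31 (adjusted p = 0.00938), a call that was lost without ischemic DMSO replicate 2 (0.77, adjusted p = 0.115) and without ischemic MK25 replicate 1 (0.91, adjusted p = 0.0939). CA9 stood at 7.32 and 7.27, above both DMSO libraries, with a difference of 0.37 (interval -0.42 to 1.17, adjusted p = 0.455). The limma fit gives CA9 1 spread for all groups, which the regular DMSO libraries widen. Weighted by read depth (voom on the recovered reads) the same difference of 0.37 passed (adjusted p = 0.00119). SLC16A3, at 7.33 and 7.33, differed from DMSO by 0.01 (interval -0.12 to 0.14).

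**Figure D4:**
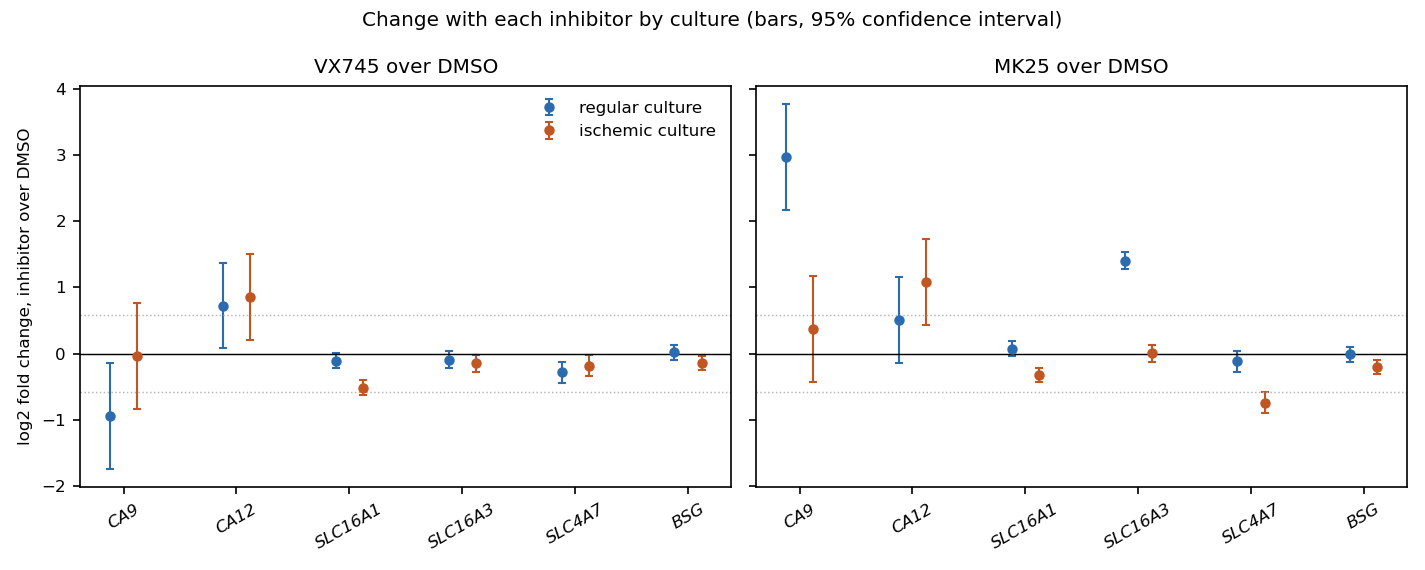
Log2 fold change of VX745 (left) and MK25 (right) over DMSO (y axis) for each gene (x axis), in regular (blue) and ischemic (orange) culture. Points are limma estimates, bars 95% confidence intervals, and dotted lines mark 1.5-fold. With MK25, CA9 and SLC16A3 rose in regular culture (2.97 and 1.41) and SLC4A7 fell in ischemic culture (-0.74).

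The effect of MK25 differed between the cultures for 4 of the 6 genes, all with a lower change in ischemic culture, where 13.9% of all genes were lower in this way and 10.5% higher. The difference was -2.59 ± 0.54 for CA9 (adjusted p = 0.00212), -1.40 ± 0.09 for SLC16A3 (adjusted p = 1.01e-08), -0.62 ± 0.11 for SLC4A7 (adjusted p = 0.000596) and -0.40 ± 0.07 for SLC16A1 (adjusted p = 0.000993). In CPM without the offset, CA9 went with MK25 from 0.678 to 4.59 in regular culture and from 121 to 157 in ischemic culture. Its lower change in ischemic culture thus holds for ratios and not for the CPM gained. The difference for CA9 was -1.57 without regular DMSO replicate 1 and -3.61 without replicate 2. It was -0.19 (interval -0.34 to -0.03, adjusted p = 0.0750) for BSG and 0.57 (interval -0.34 to 1.48, adjusted p = 0.361) for CA12. The rise with ischemia was accordingly 5.08 for CA9 and 1.43 for SLC16A3 in MK25-treated cells, and 8.57 and 2.77 in VX745-treated cells. In each inhibitor's own culture comparison 5 of the 6 genes rose and SLC4A7 fell, against 34% higher and 32.6% lower of all genes with VX745 and 33.5% higher and 33.7% lower with MK25.

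The inhibitors were also compared directly, in 2 pairs of groups, with p-values adjusted over all genes. In regular culture MK25 cells had more CA9 (by 3.91 ± 0.38, adjusted p = 1.84e-06) and more SLC16A3 (by 1.5 ± 0.06, adjusted p = 1.26e-11) than VX745 cells, and slightly more SLC16A1 (by 0.18 ± 0.05, adjusted p = 0.0487), where 3.96% of all genes were higher. The SLC16A1 call was lost whichever of the 4 libraries was left out (0.16 to 0.21, adjusted p = 0.0779 to 0.215). In ischemic culture SLC4A7 was lower with MK25 than with VX745 by 0.55 (SE 0.08, adjusted p = 5.22e-05), where 10.2% of all genes were lower and 8.22% higher. SLC16A1 was higher by 0.19 ± 0.05 (adjusted p = 0.0160), and this was lost without ischemic MK25 replicate 2 (0.14, adjusted p = 0.176), without VX745 replicate 1 (0.21, adjusted p = 0.0737) and without VX745 replicate 2 (0.17, adjusted p = 0.140). CA9 differed by 0.41 in ischemic culture (interval -0.39 to 1.21, adjusted p = 0.514). VX745 and MK25 are different compounds against different kinases, their stated concentrations differ, and these differences describe the treatments as used.

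Ordered over the 6 groups of the second experiment, CA9 was highest in ischemic MK25 cells, then in ischemic DMSO and VX745 cells, which overlap, then in regular MK25 cells, and lowest in regular DMSO and VX745 cells, which overlap. SLC16A3 had the same order of means, but ischemic MK25 and DMSO cells overlapped and no other neighbours did. SLC16A1 had 6 groups that did not overlap, from ischemic DMSO over MK25 and VX745 to regular MK25, DMSO and VX745. With 2 libraries each, that does not show 6 distinct levels. In regular culture its difference from DMSO did not pass with MK25 (0.08, limma, adjusted p = 0.365) or with VX745 (-0.11, adjusted p = 0.348). SLC4A7 ran from regular DMSO and MK25, which overlap, over regular VX745 down to ischemic DMSO, VX745 and MK25. For BSG the 3 regular groups overlapped and lay below the 3 ischemic ones.

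The genes whose pattern was nearest to each member are given as a description, by the root mean square difference of log2 values over 16 libraries, each gene centred within its experiment, among genes with a mean of at least 3. The nearest to SLC16A3 were CIART (0.21), VLDLR (0.24) and KDM3A (0.24). The choice used all 16 libraries, MK25 ones included, so a likeness in the response to MK25 follows in part from it. These 3 were higher with MK25 in regular culture, by 1.09, 1.31 and 0.93, and none was higher with MK25 in ischemic culture. The nearest to CA9 were ANGPTL4 (0.92), NDRG1 (1.19) and ADM (1.56). The difference is in log2 units, so it is larger for a gene with larger changes, such as CA9. The Pearson correlation with CA9 over the same libraries was 0.975 for ANGPTL4, 0.983 for NDRG1 and 0.957 for ADM. In regular culture with MK25 these 3 genes were higher by 0.96, 1.32 and 0.54, less than CA9. ANGPTL4 stood at 0.81 and 0.86 and NDRG1 at 4.93 and 5.09 in the regular DMSO libraries, so the gap between those libraries in CA9 was not seen in them.

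SLC16A1 was followed by JMY (0.11), SGTB (0.12) and ME1 (0.12), SLC4A7 by HACD2 (0.099), SRSF1 (0.11) and FARSB (0.11), and BSG by GRK6 (0.025), UBXN1 (0.043) and IMPDH2 (0.045). CA12 was followed by EFR3B (0.32), CITED2 (0.33) and SNAI2 (0.36).

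The rest of the pH machinery moved in a mixed way with ischemia, and none of its genes rose as far as CA9 or SLC16A3. The counts of each list that follow stand beside 35.2% higher and 35.2% lower of all genes in untreated cells, and 34.4% higher and 35.2% lower with DMSO. Among the other carbonic anhydrases 5 of 13 had a row. In untreated cells 2 rose, 1 fell and 2 did not pass, and with DMSO 1 rose and 1 fell. CA13, a cytosolic form, rose by 1.08 (limma, adjusted p = 1.53e-05) and by 0.66 with DMSO (adjusted p = 0.000527). The membrane form CA14 fell by 0.95 (limma, adjusted p = 0.0184) and by 1.66 with DMSO (adjusted p = 7.56e-05). It was weakly expressed, with 11 to 40 reads per library in the first experiment and 14 to 67 in the second.

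Of 9 genes of lactate handling 5 had a row, and in each experiment 1 was higher and 3 were lower. LDHA, the lactate dehydrogenase subunit usually linked to lactate formation, rose by 1.64 (adjusted p = 2.34e-09) and by 1.29 with DMSO (adjusted p = 2.84e-11). LDHB fell by 0.86 (adjusted p = 3.30e-07) and by 0.40 (adjusted p = 1.82e-06). EMB and NPTN, relatives of basigin that also accompany monocarboxylate transporters, fell by 0.37 and 0.51 in untreated cells, while BSG rose there. Like CA9 and SLC16A3, LDHA was higher with MK25 in regular culture, by 0.65 (adjusted p = 6.48e-06), and its response to MK25 differed between the cultures by -0.82 (adjusted p = 2.10e-05).

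Among the other bicarbonate transporters of the SLC4 family 6 of 9 had a row. In untreated cells 3 rose and 2 fell, and with DMSO 3 rose and 1 fell. SLC4A5, a sodium bicarbonate cotransporter like SLC4A7, rose by 1.48 (adjusted p = 1.28e-06) and by 1.08 with DMSO (adjusted p = 1.18e-05), opposite to SLC4A7. The anion exchangers SLC4A3 and SLC4A2 rose by 0.71 and 0.31 in untreated cells, and SLC4A11 fell by 1.40.

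Of 13 sodium-proton exchangers and their partners 10 had a row, of which 3 rose and 3 fell in untreated cells and 5 rose and 3 fell with DMSO. At 2-fold or more, 2 were higher and 1 lower in untreated cells, where 11.3% of all genes were higher. With DMSO 2 were higher and 0 lower at 2-fold, where 9.03% of all genes were higher. NHERF1, a scaffold for such exchangers, fell by 1.20 and by 0.61. SLC9A3 fell by 0.55 in untreated cells and by 0.91 with DMSO, and was higher with MK25 than with DMSO in ischemic culture by 0.91 (adjusted p = 2.31e-07).

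Of 24 genes of the V-type proton ATPase, the pump that acidifies lysosomes, 21 had a row in the first experiment, of which 3 rose and 10 fell, and 22 in the second, of which 2 rose and 10 fell. The deepest fall in untreated cells was in ATP6V0B, by 1.22 (adjusted p = 1.65e-08) and by 0.59 with DMSO (adjusted p = 2.10e-05). In ischemic culture 6 of the 22 were higher and 2 lower with MK25, where 19.8% of all genes were higher and 22% lower, and the median difference was 0.04 beside -0.0011 over all genes. Of 7 proton sensors and channels 3 had a row, and ASIC1, an acid-sensing ion channel subunit, fell by 0.73 in untreated cells (adjusted p = 0.000682) and by 0.45 with DMSO (adjusted p = 0.00250). In regular culture with VX745 no gene of these 6 lists passed, where 0.178% of all genes were higher and 0.157% lower.

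**Figure D5:**
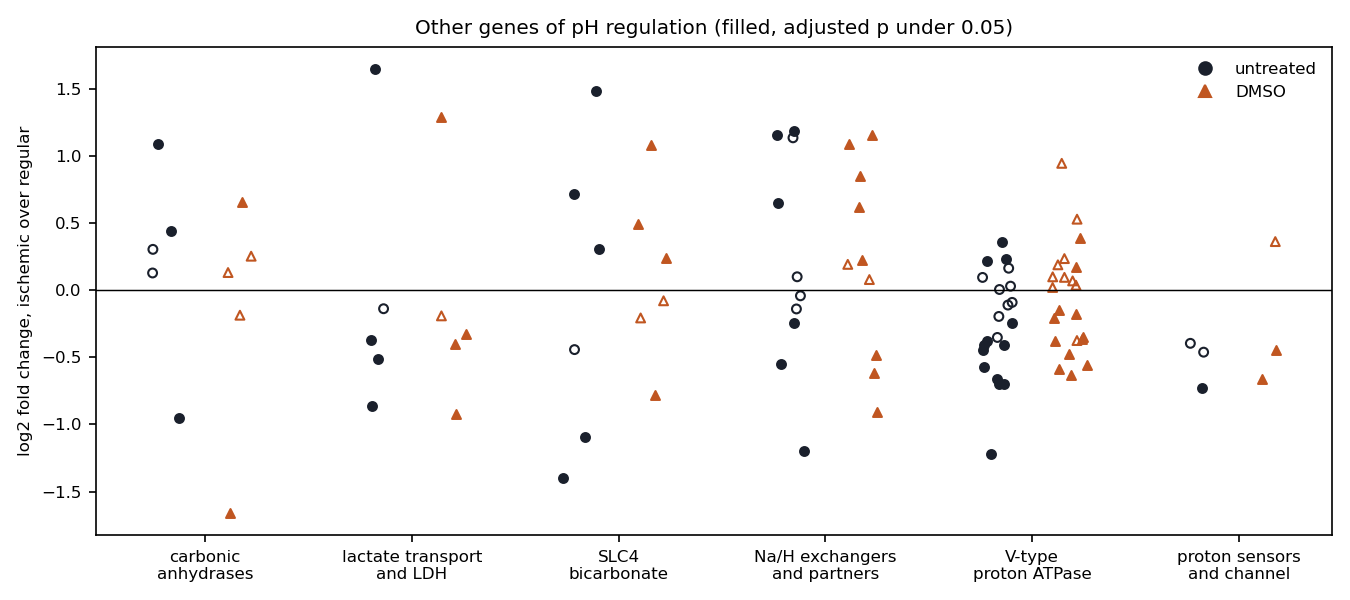
Log2 fold change of ischemic over regular culture (y axis) for the other genes of pH regulation, by list (x axis), in untreated cells (circles) and with DMSO (triangles). Each point is a gene, and filled points have an adjusted p under 0.05. LDHA has the largest rise (1.64 in untreated cells) and CA14 with DMSO the deepest fall (-1.66). CA14 had only 14 to 67 reads per library in that experiment.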

How the data were processed

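Per the labels and the study's methods, total RNA was made into libraries with SMART-Seq and Nextera XT kits, which do not mark strand. The authors trimmed the paired reads, aligned them to GRCh38 with HISAT2 in Galaxy, and deposited log2 normalized CPM, in 1 table per experiment. Entrez identifiers were matched to symbols through RefSeq (99.4% and 99.3%). Undoing the logarithm gave whole reads in every library (within 0.05 reads for values up to 1000 reads), with a mean offset of 2.08 and 2.0 reads. The depth is the sum of these reads. Intervals cover no more than the spread between libraries, and nothing says that replicates came from separate cultures.

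The study's test, edgeR, takes counts, so the deposited log2 values were fitted with limma 3.58.1 (R 4.3.3), with 1 mean per group, a variance trend, two-sided p-values and Benjamini-Hochberg adjustment over all genes, without a replicate block. All 12 libraries of the second experiment shared a fit. Calls needed an adjusted p below 0.05, and for culture also 2-fold where that is said. The test was run on simulated data with 1 spread for all genes and changes of 2-fold. Those settings do not cover levels near the floor, such as CA9 in regular culture. Replicates differed by more than sampling noise.

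The 6 genes, the lists and the alternatives were chosen with earlier results of these data known. The genes named are these 6, genes of the lists, and the 3 nearest in pattern to each. Other genes were named after their values were seen: ARHGEF39, CSNK1D and the markers. RefSeq gave no transcript lengths here, so lengths came from GENCODE 44. Figures were made with matplotlib 3.10.9. The values of 1 listed gene are not reported here.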

Additional observations from a re-analysis of the deposited data

Results flagged for a closer look

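In 5 cases the effect of an inhibitor on a gene differed between ischemic and regular culture by the interaction term of the limma fit, in 12 libraries. With VX745 this held for SLC16A1, whose change was lower in ischemic culture by 0.40 (-0.40 ± 0.07, adjusted p = 0.00294). With MK25 it held for SLC16A1 (-0.40 ± 0.07, adjusted p = 0.000993), SLC16A3 (-1.40 ± 0.09, adjusted p = 1.01e-08), SLC4A7 (-0.62 ± 0.11, adjusted p = 0.000596) and CA9 (-2.59 ± 0.54, adjusted p = 0.00212). For SLC16A3 and CA9 the difference came from a rise in regular culture, and for SLC4A7 and SLC16A1 from a fall in ischemic culture. Groups of 2 libraries are too small for a test of single outlying samples, so the gap between the regular DMSO libraries in CA9 (7 and 28 reads) was not tested.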

How the results depend on the processing

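The settings tried besides the reported one were voom on the recovered reads, quantile normalization, centring on the median, no variance trend, a mean of at least 1 CPM, the replicate number as a block, and each library left out in turn, where a lone library is assumed to vary like the other groups. Of 431 values of the 6 genes in 12 comparisons under the settings that keep all libraries, 409 kept direction and side of the threshold, and for culture 142 of 143, the exception being BSG in untreated cells (0.071 under quantile normalization). No scaling moved the median of all genes by more than 0.1. The causes below were not tested.

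For VX745 in ischemic culture, quantile normalization gave 0.037 for CA9, 0.64 for CA12 and 0.077 for BSG, so CA9 and BSG turned and CA12 no longer passed. Without the trend CA12 (0.85) and BSG (-0.14) did not pass, and SLC16A3 passed with voom (-0.15) and median centring (-0.16). With MK25 in ischemic culture, CA9 passed with voom (0.37) and BSG turned under quantile normalization (0.053). MK25 against VX745 in ischemic culture passed with voom for CA9 (0.41) and SLC16A3 (0.15). In regular culture SLC16A1 did not pass with voom (0.19), quantile normalization (0.17), median centring (0.17) or no trend (0.18). In the interaction with VX745, quantile normalization turned CA12 (-0.040), SLC16A3 (0.012) and BSG (0.066), none of which passed, and in that with MK25 it turned BSG (0.099). At 1.5-fold or more, the genes called with VX745 in regular culture were 14, and 5 with voom and 5 without the trend. The interaction with VX745, with no fold limit, called 1653 genes, 1026 under quantile normalization and 594 without the trend.

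With libraries left out, 303 of 336 values of the 6 genes kept their call and direction. By the same rules the genes called ranged from 7 to 143 for VX745 in regular culture (143 without regular DMSO replicate 1, 8 without replicate 2), from 268 to 546 for MK25 in regular culture (546 without regular DMSO replicate 1), and from 601 to 2038 for the interaction with VX745 (601 without ischemic VX745 replicate 1). CA9 ranged from -1.96 to 0.079 for VX745 in regular culture and from -0.11 to 1.92 in its interaction, each set by which regular DMSO library was kept. CA12 ranged from 0.20 to 1.13 in untreated cells, 0.54 to 1.16 for VX745 and 0.77 to 1.39 for MK25 in ischemic culture, -0.60 to 0.17 for MK25 against VX745 in regular culture, and -0.18 to 0.43 in the interaction with VX745. BSG ranged from -0.17 to -0.11 for VX745 and -0.23 to -0.17 for MK25 in ischemic culture, from -0.0052 to 0.040 for VX745, -0.054 to 0.030 for MK25 and -0.071 to 0.012 for MK25 against VX745 in regular culture, and from -0.23 to -0.15 in the interaction with MK25. CA9 for VX745 in ischemic culture ranged from -0.082 to 0.012, SLC16A3 for MK25 in ischemic culture from -0.0021 to 0.018, and SLC4A7 for VX745 in regular culture from -0.36 to -0.20. SLC16A1 ranged from 0.14 to 0.25 (ischemic) and from 0.16 to 0.21 (regular) for MK25 against VX745.

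With 2 libraries per group, whether the replicate numbers pair the libraries cannot be decided. The correlation of their deviations from the group means was 0.27 between the 2 groups of the first experiment. It ran from -0.27 to 0.32 over 15 pairs of groups in the second, over 0.1 in 4. With the number as a block, 70 of 72 values kept their call, and BSG for VX745 in ischemic culture (-0.14) and SLC16A1 for MK25 against VX745 in regular culture (0.18) did not pass.

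Reads per kilobase depend on the transcript taken. In untreated regular and ischemic cells the longest transcript gave 0.0816 and 0.144 for CA12, 8.33 and 5.97 for SLC4A7, 240 and 292 for BSG, and 3.61 and 45.1 for SLC16A3. The MANE Select transcript, an alternative chosen after seeing the data, gave 0.0816 and 0.144 for CA12, 8.33 and 5.97 for SLC4A7, and 240 and 292 for BSG. In regular cells CA12 was then below CA9. Depth was low for CA9 in regular culture (4 to 111 reads per library) and for CA12 throughout (12 to 123 reads).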
